A study of Mus musculus with 34 samples.

Results

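Clec4f, Slc11a1, Lyz2, B2m and Vim are transcripts through which liver RNA can be read for cells other than hepatocytes. They were taken by gene symbol from the annotation of a spotted array of rat-designed oligonucleotides. They make up 5 of the 1019 named genes and 8 of the 1920 spots, since Clec4f, Slc11a1 and Vim have 1 spot each, Lyz2 has 2 and B2m has 3. The study hybridised liver RNA of single mice against universal mouse reference RNA and asked how chronic heat alters liver gene expression. The thermoneutral group (TN) held 7 mice fed a fescue diet free of endophyte, and the heat-stressed group (HS) held 6 mice kept in heat for 2 weeks. The labels of 8 of the 14 HS arrays give 34 °C, and some give the exposure as 27 to 40 days of age. The strain ICR is named on 2 HS arrays, and neither the diet of the HS mice nor the age and strain of the TN mice is given in the sources used here. Diet, strain, age and handling therefore cannot be told apart from heat.

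Kupffer cells are the resident macrophages of the liver and line its sinusoids, where they take up particles, bacteria and ageing red blood cells. Clec4f is a C-type lectin that marks mouse Kupffer cells, Slc11a1 (Nramp1) exports metal ions from the phagosome, and Lyz2 encodes the lysozyme of macrophages and neutrophils. B2m encodes beta-2-microglobulin, the light chain of the MHC class I molecules that present peptides on nearly all nucleated cells, so it is not a marker of 1 cell type. Vim encodes vimentin, the intermediate filament protein of stellate cells, fibroblasts, endothelium and leukocytes, which resting hepatocytes lack. In whole liver RNA, fewer cells of a type and less RNA per cell cannot be told apart.

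Every value below is a log2 ratio of liver over the reference RNA for 1 mouse, taken over its 1 to 4 arrays, and 0 is the median spot of the array. Where genes are said to be above, below, higher or lower than the reference, the comparison is with that median spot. A ratio compares liver with the reference for 1 transcript, and does not rank the abundance of different transcripts. The 34 arrays comprised 20 of TN and 14 of HS mice, with the liver in Cy5 on 21 and in Cy3 on 13. On the Cy5 arrays 25 to 34 of 37 hepatocyte genes for plasma proteins lay above 0 in the deposited ratios, and on the Cy3 arrays 2 to 8 did. Once every array was turned to liver over reference, the mean of those 37 genes lay between 1.37 and 2.13 in the TN mice and between 1.44 and 2.10 in the HS mice. Arrays stood apart in 2 mice: the Cy5 array of TN mouse M244 and the Cy3 array of HS mouse F241 had a median absolute deviation of 1.66 and 1.29, against 0.42 to 0.93 on the other 32. Each of these mice had 2 arrays, and HS mouse F203 had 1. Labels call HS mouse F222 female and HS mouse M233 male. HS mouse M242 is called female in a label although its identifier starts with M.

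No member passed the test of HS against TN, and no other feature of the array did. In limma's test with Benjamini-Hochberg adjustment over 1856 features, 0% were called higher in HS and 0% lower, and the lowest adjusted p was 0.999. Without adjustment 45 features had a p under 0.05, and TN and HS mice overlapped in every feature. The median difference over all features was −0.01 with a median standard error of 0.31, and 48.3% of features lay above 0. Of the members, Clec4f, Slc11a1, Lyz2 and B2m lay above 0 and Vim below it.

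**Figure D1:**
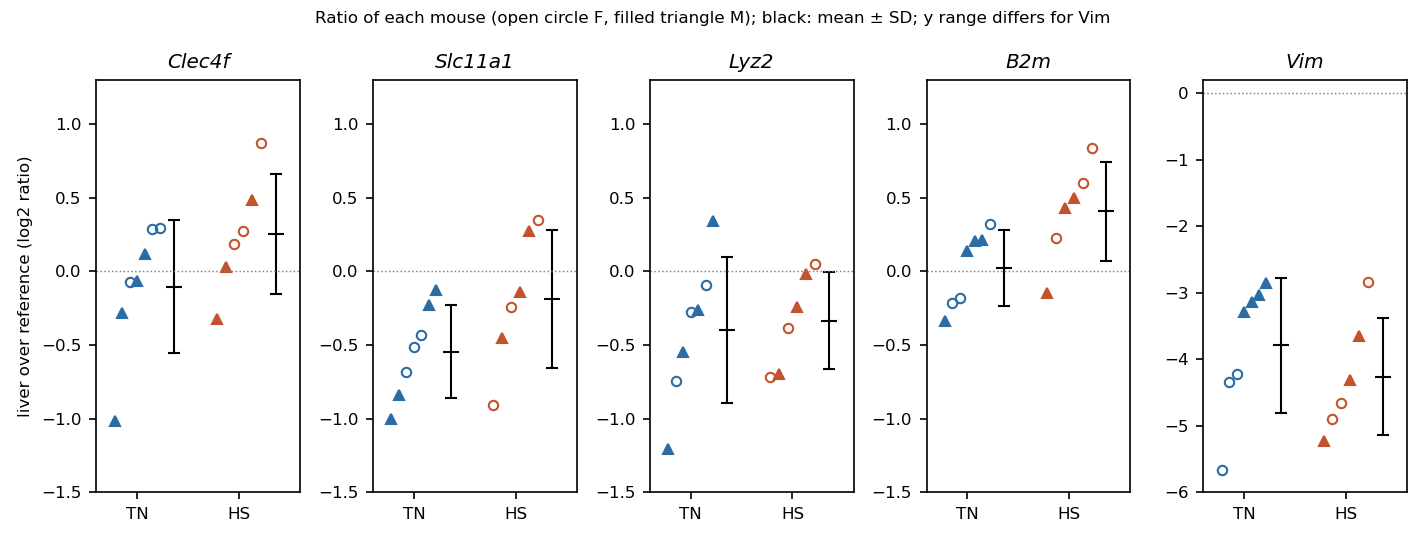
Liver over reference (log2 ratio, vertical axis, with a wider range for Vim) of the 5 genes, with 1 point per mouse in TN (7 mice, blue) and HS (6 mice, orange), open circles for F and filled triangles for M identifiers, and black bars for mean ± SD. Vim lies between −5.67 and −2.84 in all 13 mice, the other genes lie between −1.20 and 0.88, and TN and HS mice overlap in all 5.

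The Kupffer cell lectin Clec4f was close to the array median in both groups. In TN its lowest, median and highest values were −1.02, −0.06 and 0.30, and in HS they were −0.33, 0.23 and 0.88. The lowest TN mouse was M244 and the highest HS mouse was F241, and 2 HS mice lay above every TN mouse. The mean was −0.10 ± 0.45 (SD, n = 7) in TN and 0.25 ± 0.41 (SD, n = 6) in HS. The difference of 0.36 (SE 0.28, 95% interval −0.22 to 0.93) is a 1.28-fold higher ratio in HS with an interval of 0.861 to 1.90, and did not pass the test (limma adjusted p = 0.999; two-sided exact permutation p = 0.176). Neither group was called against the array median (limma adjusted p = 0.772 in TN and 0.370 in HS). Without the 2 arrays that stand apart, M244 was −0.84, F241 was 0.04 and the difference was 0.21, as it also was without mouse M244. With Cy5 arrays alone the difference was 0.13 and with Cy3 arrays alone 0.68, and the HS mean was 0.13 without mouse F241.

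Slc11a1, the phagosomal metal transporter, was below the array median in TN liver. Its TN values ran from −1.0 (M244) through a median of −0.51 to −0.12, with all 7 mice below 0. The HS values ran from −0.91 through a median of −0.19 to 0.35, and 2 HS mice lay above the highest TN mouse. These were F203 (0.35), which had 1 array, and M256 (0.275), whose arrays disagreed as given below. In TN the mean of −0.54 ± 0.32 (SD, n = 7), a 1.46-fold lower ratio, was called below 0 (limma adjusted p = 0.0188), a call that 19.7% of all features shared. The HS mean of −0.19 ± 0.47 (SD, n = 6) was not called (limma adjusted p = 0.515), in a test that called 18.4% of features below 0, and was −0.04 without mouse F222 and −0.29 without F203. The HS minus TN difference itself was 0.36 (SE 0.27, 95% interval −0.20 to 0.91; limma adjusted p = 0.999; exact permutation p = 0.132). The TN call was lost without mouse M251 (−0.49, adjusted p = 0.0649), with no centring of the arrays (−0.43, adjusted p = 0.245) and with Cy5 arrays alone (−0.52, adjusted p = 0.174). In HS mouse M256 the arrays disagreed, with 1.82 on the Cy5 array and −1.27 on the Cy3 array, and leaving that mouse out took the difference to 0.24, as array weights took it to 0.18.

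Lyz2, the macrophage lysozyme, differed least between the groups. Its TN values ran from −1.20 (M244) through a median of −0.28 to 0.34, and its HS values from −0.71 through −0.31 to 0.05. The HS mice lay wholly within the TN range. The means were −0.40 ± 0.49 (SD, n = 7) and −0.33 ± 0.33 (SD, n = 6), and the difference of 0.06 (SE 0.28) had a 95% interval of −0.51 to 0.63 (limma adjusted p = 0.999; exact permutation p = 0.799). The interval leaves room for a ratio in HS from 0.704 to 1.55 times that in TN. The sign turned to −0.13 without the 2 arrays that stand apart and to −0.06 without mouse M244. Against the array median neither group was called (limma adjusted p = 0.103 in TN and 0.215 in HS), although TN was called without mouse M211 (−0.52, adjusted p = 0.0347).

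**Figure D2:**
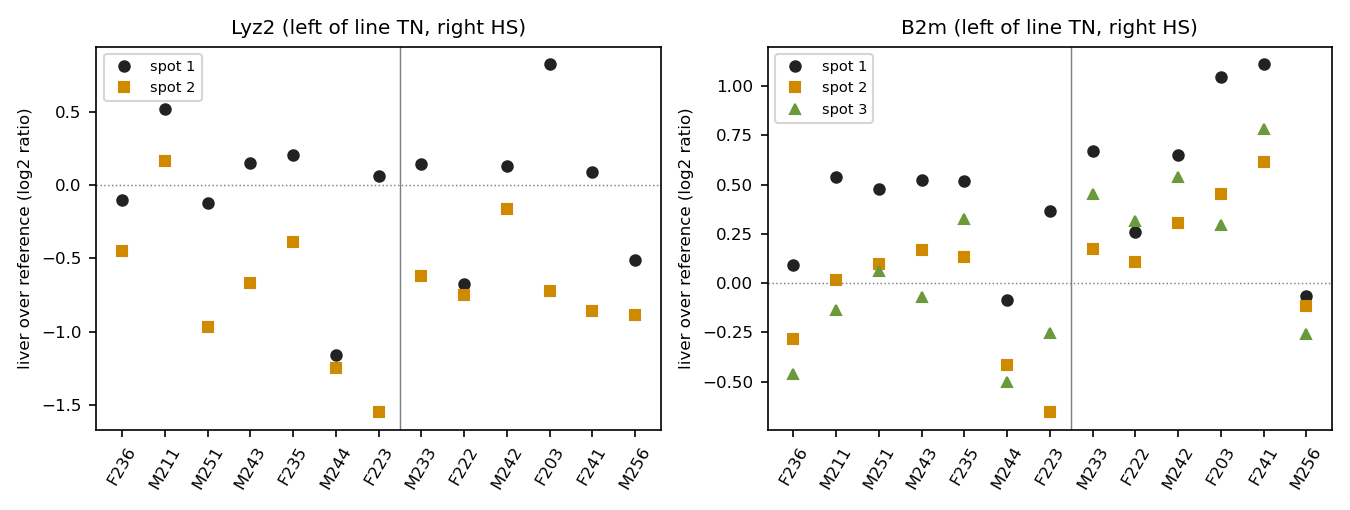
Liver over reference (log2 ratio, vertical axis) at the 2 spots of Lyz2 and the 3 spots of B2m in each of the 13 mice (horizontal axis; TN left of the grey line, HS right of it), with 1 symbol per spot. The first spot lies above the second in 13 of 13 mice for both genes.

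The 2 Lyz2 spots, which were designed on different database sequences, gave different ratios in the same RNA. The first averaged −0.06 ± 0.53 (SD, n = 7) in TN and 0.00 ± 0.54 (SD, n = 6) in HS. The second averaged −0.73 ± 0.58 and −0.67 ± 0.26, and was called below the array median in both groups when each spot was tested by itself (limma adjusted p = 0.00342 and 0.0121). Of 1920 spots tested that way, 779 were called in either direction in TN and 794 in HS. The first spot was higher in 13 of 13 mice, by 0.67 ± 0.50 (SD), with a two-sided exact sign-flip permutation p of 0.000244, the smallest that 13 mice can give (0.000488 adjusted over 4 pairs of spots). With Cy5 arrays alone it was higher in 10 of the mice with such an array. The 2 spots also ranked the mice only partly alike, with r = 0.47 and rho = 0.64 over 13 mice. Values given for Lyz2 as a gene are the mean of both. The mouse lysozyme genes Lyz1 and Lyz2 are close copies, and which of them each oligonucleotide binds was not tested. Both spots gave an HS minus TN difference of 0.06.

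Few other macrophage genes were among the named spots. Of 32 symbols in a list of Kupffer cell and macrophage markers, 6 were measured, the members Clec4f, Slc11a1 and Lyz2 among them. Of these 6, 0 passed the test of HS against TN. Their median difference was 0.04, with 4 of 6 above 0: those members and Aif1 (0.02). Against the reference, 4 of the 6 were called lower in TN, Slc11a1 among them, and 3 in HS, and 0 were called higher. Of all features 19.7% were called lower in TN and 18.4% in HS, and 19.8% were called higher in TN and 21.9% in HS. These shares, set beside members and lists throughout, include spots with no gene name. When named genes were tested alone, 577 of 1019 were called in either direction in TN and 563 in HS. Over all 1856 features the counts were 733 and 748. The shares of all features therefore understate how often a named gene was called. Lgals3, a galactose-binding lectin of macrophages and bile duct cells, averaged −3.14 ± 0.44 (SD, n = 7) in TN and −3.47 ± 1.01 (SD, n = 6) in HS. C1qb, a chain of complement C1q made by macrophages, averaged −0.95 ± 0.48 in TN and −1.0 ± 0.27 in HS. Aif1, an actin-binding protein of macrophages, averaged −0.52 ± 0.31 and −0.50 ± 0.32; it and C1qb were named after their values were seen. The mean of the 6 genes per mouse lay between −1.54 and −0.46 in TN and between −1.33 and −0.48 in HS. It includes Lgals3, by far the lowest of the 6.

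B2m had the smallest unadjusted p of the 5 genes for HS against TN. The TN values ran from −0.33 (M244) through a median of 0.14 to 0.32, and the HS values from −0.15 (M256) through 0.47 to 0.83 (F241). Of the 6 HS mice, 4 lay above every TN mouse and 5 lay above the TN mean. The means were 0.02 ± 0.26 (SD, n = 7) and 0.41 ± 0.34 (SD, n = 6). The difference of 0.39 (SE 0.25, 95% interval −0.13 to 0.90), a 1.31-fold higher ratio, did not pass limma's test (unadjusted p = 0.134, adjusted p = 0.999). The two-sided exact permutation test of B2m alone gave p = 0.0420, unadjusted, where the same test of the other 4 genes gave 0.132 to 0.799. Without the 2 arrays that stand apart M244 was 0.34 and F241 was 0.07, the difference was 0.19 and the exact permutation p was 0.224.

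Against the array median B2m was not called in either group (limma adjusted p = 0.945 in TN and 0.0817 in HS). In HS it was called above the median without HS mouse M256 (0.52, adjusted p = 0.0309). It was also called without TN mouse M244 (adjusted p = 0.0432), which left the HS mean at 0.41 and lowered its SE from 0.18 to 0.16. In the main fit 21.9% of all features were called above the median in HS. With Cy5 arrays alone the HS ratio of B2m was 0.66 (adjusted p = 0.0477), with Cy3 arrays alone 0.11 (adjusted p = 0.727), and without the 2 arrays that stand apart 0.28 (adjusted p = 0.227). The 3 B2m spots, all designed on 1 database sequence, ranked the mice much alike, and the first stood above the second and the third in level. The first spot averaged 0.35 ± 0.25 (SD, n = 7) in TN and 0.61 ± 0.45 (SD, n = 6) in HS, where it was called above the median when tested by itself (limma adjusted p = 0.0118). In that test 794 of 1920 spots were called in either direction in HS. The second B2m spot averaged −0.13 ± 0.32 and 0.26 ± 0.26, and the third −0.15 ± 0.29 and 0.35 ± 0.35. The first lay above the second in 13 of 13 mice, by 0.42 (exact sign-flip permutation p = 0.000244, adjusted 0.000488), and above the third in 12 of 13, by 0.39 (p = 0.000488, adjusted 0.000651). The second and the third differed by −0.04 (exact p = 0.529), and r between spots over the mice was 0.79 to 0.85. The HS minus TN difference was 0.27, 0.39 and 0.50 at the first, the second and the third spot, with unadjusted limma p of 0.320, 0.130 and 0.0601 and an adjusted p of 0.999 at each.

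Genes of antigen presentation lay on both sides of 0 for HS against TN. Of 34 symbols, 12 were measured, B2m among them. Of these 12, 0 passed the test of HS against TN and 7 lay above 0. Their median difference was 0.16, against −0.01 over all features and 0.06 over the named genes alone. Pdia3, the thiol reductase of the peptide loading complex, averaged −1.05 in TN and −1.44 in HS, a difference of −0.39 (SE 0.30). Canx, the chaperone calnexin that folds class I heavy chains, differed by −0.27 (SE 0.26), and RT1-Db1, named by its rat symbol for an MHC class II beta chain, by 0.26 (SE 0.26). Against the reference 0 of the 12 were called higher in either group, and 5 were called lower in TN and 4 in HS, where 19.7% and 18.4% of all features were called lower and 19.8% and 21.9% higher. RT1-Da, an MHC class II alpha chain by its rat symbol, averaged −0.95 in TN and −0.72 in HS. Tap2, a subunit of the peptide transporter of the endoplasmic reticulum, averaged −0.78 in TN and −0.80 in HS. Psme2, a subunit of the proteasome activator, averaged −0.64 in TN and −0.37 in HS, and it, RT1-Da and Tap2 were named after their values were seen.

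**Figure D3:**
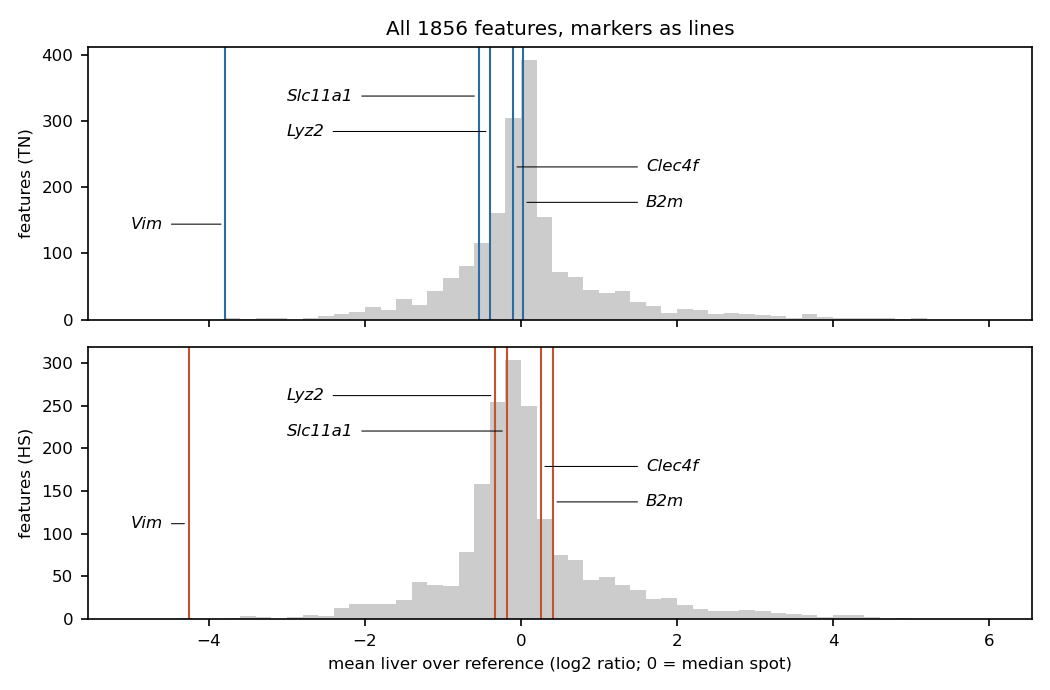
Number of features (vertical axis) by mean log2 ratio of liver over reference (horizontal axis) for all 1856 features in TN (upper) and HS (lower), with the means of the 5 genes as vertical lines. Vim, at −3.79 in TN and −4.26 in HS, lies at the low end of the distribution. The other 4 genes lie between −0.54 (Slc11a1 in TN, with 18.3% of features below it) and 0.41 (B2m in HS, with 75.3% below it).

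Vim, the mesenchymal filament gene, had the lowest liver over reference ratio of all 1856 features in both groups. The TN values ran from −5.67 (F223) through a median of −3.29 to −2.85, and the HS values from −5.23 (M256) through −4.48 to −2.84 (F222). Every mouse lay below −2.8. The TN mean of −3.79 ± 1.01 (SD, n = 7) is a ratio 13.8-fold lower than that of the median spot, with a 95% interval of 9.09 to 21.1 (limma adjusted p = 2.51e-10). The HS mean of −4.26 ± 0.88 (SD, n = 6) is 19.2-fold lower, with an interval of 12.2 to 30.2 (limma adjusted p = 1.75e-10). The next lowest feature, a spot with no gene name, averaged −3.67 in TN and −3.73 in HS. Over 11 other settings and 13 fits that each left out 1 mouse, Vim was called below the median in both groups in all 24, and its rank from the lowest was never past 3.

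Vim also varied more than most features. Of all features, 98.4% had a smaller SD between TN mice and 90.4% a smaller SD between HS mice, where the median SD was 0.55 and 0.53. The shares for B2m were 4.04% and 16.3%. Arrays of the same mouse differed more for Vim too, with a pooled SD within mice of 1.18 against 0.41 to 0.62 for the other 4 genes. In mouse F241 the Cy5 array gave −2.90 and the Cy3 array, which stands apart, gave −6.40. The HS minus TN difference was −0.47 (SE 0.43, 95% interval −1.36 to 0.42; limma adjusted p = 0.999; exact permutation p = 0.388). Its sign turned to 0.04 without the 2 arrays that stand apart and to 0.27 when the arrays were scaled to 1 spread. It ranged from −0.79 without F223 to −0.28 without M256.

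Few other mesenchymal genes were measured, and they lay on both sides of the reference. Of 38 symbols for stellate cells and matrix, 6 were measured, Vim among them. Of these 6, 0 passed the test of HS against TN, 3 lay above 0 and the median difference was 0.01. Sparc, a collagen-binding matrix protein, averaged −2.46 ± 0.73 (SD, n = 7) in TN and −2.71 ± 0.48 (SD, n = 6) in HS. Fn1, the fibronectin gene that hepatocytes also express, averaged −2.55 ± 0.91 and −2.56 ± 0.62; it was named after its values were seen. With Vim these are the 3 of 6 called below the reference in each group, as were 19.7% of all features in TN and 18.4% in HS. Rgs5, a regulator of G protein signalling found in pericytes, averaged 0.20 ± 0.20 in TN and 0.58 ± 0.34 in HS. Igfbp3, a binding protein of insulin-like growth factors made by liver cells other than hepatocytes, averaged 0.29 ± 0.17 and 0.57 ± 0.27. Both were called above the reference in HS (limma adjusted p = 0.0107 and 0.0101), as were 21.9% of all features, and not in TN (0.418 and 0.174), while their HS minus TN differences of 0.38 (SE 0.24) and 0.28 (SE 0.24) did not pass the test.

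Of the genes of the cytoskeleton, 5 of 8 were called lower than the reference in each group, where 19.7% of all features were in TN and 18.4% in HS. These 8 were measured of 21 symbols, 0 were called higher, and 0 passed the test of HS against TN, with a median difference of −0.21 and 3 of 8 above 0. Tmsb4x, an actin-binding thymosin, averaged −3.18 ± 0.32 (SD, n = 7) in TN and −3.45 ± 0.61 (SD, n = 6) in HS. Actg1, a non-muscle actin, averaged −2.29 and −2.62. Tubb5, a beta-tubulin, averaged −1.87 and −2.45, a difference of −0.59 (SE 0.36), and Tubb2b, another, averaged 0.26 and −0.30, a difference of −0.56 (SE 0.37).

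Lysosomal genes, which macrophages share with hepatocytes, lay on both sides of 0. Of 31 symbols 11 were measured, 6 lay above 0 for HS against TN, 0 passed the test, and the median difference was 0.00. Ctsh, a cathepsin, averaged 1.20 ± 0.87 (SD, n = 7) in TN and 0.59 ± 0.92 (SD, n = 6) in HS, a difference of −0.61 (SE 0.41). It was called above the reference in TN, as were 19.8% of all features. Of the other 10, none was called above, and 4 were called below in TN and 3 in HS, where 19.7% and 18.4% of all features were. Those called below in both groups were the cathepsin Ctsl (−1.0 in TN and −1.17 in HS), the glucuronidase Gusb (−0.71 and −0.65) and the saposin precursor Psap (−0.76 and −0.75), all named after their values were seen. The proton pump subunit Atp6v0c differed by 0.23 (SE 0.26), the cathepsin Ctsc by 0.22 (SE 0.26) and the membrane protein Lamp1 by −0.20 (SE 0.25).

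Few markers of further cell types were among the named spots. Of 20 endothelial symbols 1 was measured, Nos3, the endothelial nitric oxide synthase, at −0.48 in TN and −0.28 in HS. Of 14 bile duct symbols 2 were measured: Slc4a2, an anion exchanger, at −0.55 in TN and −0.28 in HS, and Krt8, a keratin shared with hepatocytes, at 0.02 and 0.18. Nkg7, a granule protein of cytotoxic lymphocytes, was the 1 measured of 20 lymphocyte symbols, at 1.42 ± 0.64 (SD, n = 7) in TN and 1.19 ± 0.42 (SD, n = 6) in HS. Hba-a1, an alpha globin of red blood cells with 4 spots, averaged 1.04 ± 0.62 in TN and 1.43 ± 0.75 in HS. Of 12 neutrophil symbols 0 were measured, so the lysozyme of neutrophils and of macrophages could not be separated by a neutrophil gene. Of the 37 hepatocyte plasma protein genes 27 were called above the reference in TN and 29 in HS (19.8% and 21.9% of all features), 1 was called below in each, and 19 lay above 0 for HS against TN with a median difference of 0.01. Of these, Cpn1, a carboxypeptidase subunit, differed by 0.72 (SE 0.26), Apoa1, the main protein of high-density lipoprotein, by −0.93 (SE 0.41), Proc, the protein C gene, by 0.58 (SE 0.33) and the pentraxin Apcs by 0.62 (SE 0.38). None of the 84 measured genes of these lists passed the test of HS against TN in limma, and 2, Cpn1 and Apoa1, had an unadjusted p under 0.05.

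**Figure D4:**
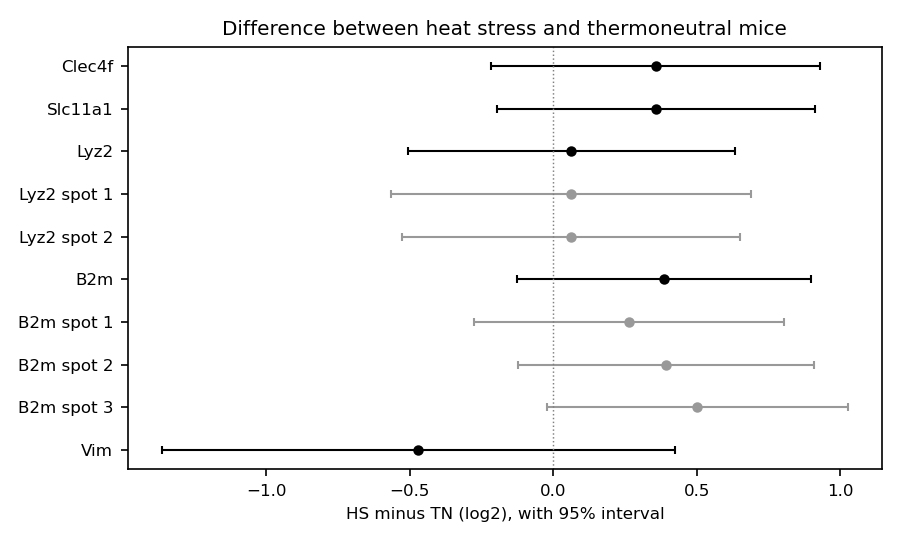
HS minus TN difference (log2, horizontal axis) with its 95% interval from limma for the 5 genes (black) and for the single spots of Lyz2 and B2m (grey). All intervals include 0, and the 5 genes run from −0.47 for Vim to 0.39 for B2m.

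Mouse identifiers start with F or M, and that letter was compared as a letter only. Between F and M mice, in limma's additive fit with heat, 0.0539% of features were called (1 of 1856), and no member was. Vim averaged −4.44 ± 0.94 (SD, n = 6) in F mice and −3.64 ± 0.85 (SD, n = 7) in M mice, and the fitted difference was −0.76 (SE 0.41; limma adjusted p = 0.995). Clec4f was 0.43 higher in F mice (SE 0.27; limma adjusted p = 0.995). In TN the 3 F mice had Vim at −5.67 to −4.22 and the 4 M mice at −3.29 to −2.85, without overlap, as was the case for 3.39% of all features. Without the 2 arrays that stand apart, M mouse M244 was −4.95, within the range of the F mice, and the fitted difference between F and M mice was −0.29. In HS the 3 F mice lay at −4.89 to −2.84 and the 3 M mice at −5.23 to −3.65, with overlap. The interaction of heat and letter was 1.94 for Vim (SE 0.73, unadjusted p = 0.0147) and was not called (limma adjusted p = 0.998). Of all features 0% were called for that interaction and 1.19% had an unadjusted p under 0.05. For the other 4 genes the unadjusted p was at least 0.496. Without F223 the Vim interaction was 1.46, without F222 1.26 and without M256 1.53, each with an unadjusted p over 0.05. When the arrays were scaled to 1 spread it was 3.35 (adjusted p = 0.0645), and without the 2 arrays that stand apart 2.10 (unadjusted p = 0.0283).

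**Figure D5:**
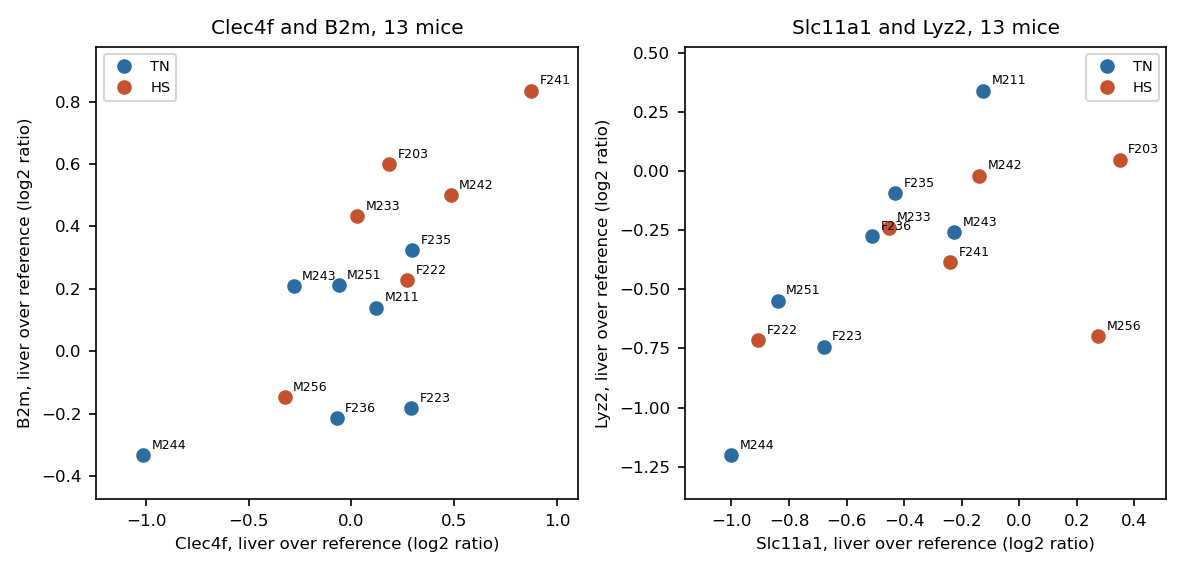
Liver over reference (log2 ratio) of B2m against Clec4f and of Lyz2 against Slc11a1, with 1 labelled point per mouse (7 TN in blue, 6 HS in orange). B2m and Clec4f have r = 0.73 over the 13 mice, with M244 at the low end and F241 at the high end, and Lyz2 and Slc11a1 have r = 0.60, with F203 and M256 farthest to the right.

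Mice high in 1 marker were high in another for 1 of the 10 pairs of members after Benjamini-Hochberg adjustment over the pairs. Clec4f and B2m had r = 0.73 over 13 mice (permutation p = 0.00325, adjusted 0.0325) and rho = 0.69 (permutation p = 0.0109, adjusted 0.0547). Without M244 and F241, the mice farthest from the median of Clec4f, r was 0.43, and without the 2 arrays that stand apart in those mice it was 0.18, so the relation rests on them. No pair was called when F235, M244, M242 or F241 was left out, and 2 were without M256. Within TN r was 0.51 and within HS 0.85. With group means taken out it was 0.67 (permutation p adjusted 0.0815), and no pair was called. Slc11a1 and Lyz2 had r = 0.60 (permutation p = 0.0318, adjusted 0.159) and rho = 0.71 (permutation p = 0.00887, adjusted 0.0547). Within TN that r was 0.91 and within HS 0.40, and without F203 and M256 it was 0.87. Lyz2 is here the mean of its 2 spots, whose own r over the 13 mice was 0.47. Pairs with Vim had r between −0.44 and 0.06 over the 13 mice. Slc11a1 and Vim had r = −0.95 within the 6 HS mice and 0.21 within TN, which was not tested. Ratios of all genes share the arrays of a mouse: over all pairs of named genes the median r was 0.242, and 33.3% of pairs had an r beyond 0.5 in size. The permutation p is against an r of 0 and not against that shared level, so it does not show a relation particular to these markers.

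The named genes whose ratios over the 13 mice were most like each member by Pearson's r are given as a description. For Clec4f they were Rab10 (r = 0.953), Lin7a (0.945) and Ptgfr (0.933). For Slc11a1 they were Clcc1 (0.871), Lmnb1 (0.868) and Apoe (0.867). For Lyz2 they were Cr1l (0.951), Rock2 (0.948) and Itgb1 (0.938). For B2m they were Igfbp3 (0.935), Anp32a (0.921) and Gpr37 (0.887). For Vim they were the ribosomal protein genes Rpl19 (0.837), Rpl8 (0.818) and Rps18 (0.814). With group means taken out, r for these 15 genes lay between 0.804 and 0.952. They were picked for the highest r in the same 13 mice, so these values do not show whether they vary together beyond those mice.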

How the data were processed

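Liver RNA of 13 mice was measured against 1 universal mouse reference RNA on 34 arrays with 2 colours. The authors deposited 1 ratio per spot, Cy5 over Cy3, taken here as log2 and not centred between arrays. The sources used here do not state the base of the deposited log ratio, the background correction or the normalization. The values ran from −7.64 to 7.71, with 11 missing, 0 of them at the members. Spots were named by the platform annotation, in which 1083 of 1920 spots have 1 symbol.

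Each array was centred on its median, and spots of 1 gene were averaged, which left 1019 named genes and 1856 features. Per feature, least squares on 13 mouse terms, signed by the dye of the liver RNA, and 1 dye term gave 1 ratio per mouse. Mouse ratios were tested with limma 3.58.1 in R 4.3.3 (lmFit, eBayes, two-sided, Benjamini-Hochberg over all features, threshold 0.05), for HS minus TN, for each group against 0, and for the identifier letter and its interaction. Features needed values in at least 4 mice per group. Arrays of 1 mouse are technical replicates, and the reference is 1 RNA whose own spread is not in the error. Single genes were also tested by exact permutation over 1716 splits, and correlations with 100000 permutations. The fit was tested on simulated data with planted changes larger than the HS minus TN difference of any member. Its power for differences as small as those of the members was not tested. The number of arrays limits the precision.

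The members and gene lists were chosen with earlier results of these data known. All 5 members are named. From each list, up to 4 genes of smallest p for HS minus TN are named, and lists of up to 4 measured genes are named in full. The 3 genes most correlated with each member are named. Further genes are marked in the text as named after their values were seen. Alternatives covered centring, scaling, quantile normalization, single dyes, array weights, single spots, 2 arrays that stand apart, and each mouse left out. The correlations without 2 arrays, and the alternatives for the Vim interaction, for Vim between F and M mice and for the difference between the Lyz2 spots, were added after seeing the data.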

Additional observations from a re-analysis of the deposited data

Results flagged for a closer look

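The ratios of the 5 genes, and those of the single spots of Lyz2 and B2m, were checked in each group for a mouse far from the others, and 2 of 20 groups of values held one. At the first spot of Lyz2, TN mouse M244 had the lowest value, −1.16, and its gap to the next mouse was 0.616 of the range of the 7 TN mice. At the second spot of Lyz2, HS mouse M242 had the highest value, −0.16, and its gap to the next was 0.631 of the range of the 6 HS mice. Chance marks about 1 in 20 such groups.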

How the results depend on the processing

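The count of features called for HS against TN stayed at 0 under every alternative run. With no centring, the median of all TN features moved to 0.14. For Lyz2, HS minus TN was −0.01 with no centring, −0.080 with Cy5 arrays and −0.13 without the 2 arrays that stand apart, and lay between −0.063 and 0.18 with each mouse left out in turn, turning below 0 without M244, M242 (−0.0022) or F203 (−0.014). For Vim it was 0.27 with scaled arrays and 0.037 without those 2 arrays. For B2m the exact permutation test of the same difference, 0.39, gave an unadjusted p of 0.0420, and 0.224 without those 2 arrays, and no limma fit called it. The Clec4f ratio in TN was 0.016 with no centring and 0.16 with Cy5 arrays, and lay between −0.17 and 0.046 with each mouse left out (0.046 without M244). The Slc11a1 ratio in TN was −0.43 with no centring and −0.52 with Cy5 arrays, neither called, and lay between −0.62 and −0.47 with each mouse left out. The Lyz2 ratio in TN was called with array weights (−0.31) and at the second spot (−0.73), lay between −0.52 and −0.27 with each mouse left out, and in HS was called at the second spot (−0.67). The B2m ratio in TN was −0.48 with Cy3 arrays, −0.13 at the second and −0.15 at the third spot, and lay between −0.019 and 0.069 with each mouse left out, below 0 without M211 (−0.00078) or F235 (−0.019). In HS the B2m ratio was called with quantile normalization (0.42), Cy5 arrays (0.66), named genes alone (0.41), array weights (0.44) and at the first spot (0.61), was not called with Cy3 arrays (0.11) or without the 2 arrays that stand apart (0.28), and lay between 0.32 and 0.52 with each mouse left out. Features called for F against M numbered 1 to 2 with each mouse left out, 2 without F222. For the interaction of heat and letter 1 feature was called with scaled arrays, and 0 to 1 with each mouse left out (1 without M244 and 1 without F222), no member among them. Pairs of members called for correlation numbered 0 without the 2 arrays and 0 with group means taken out, and 0 to 2 with each mouse left out (0 without F235, M244, M242 or F241 and 2 without M256). No paired analysis was possible because the 2 groups share no mouse. Precision is limited by 13 mice and 34 arrays, and without spot intensities the signal over background of each spot is unknown.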
